A study of Avena sativa with 6 samples.

Results

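SWEET proteins and sucrose symporters, the 2 families of membrane carriers that hand sugar from cell to cell and into growing grains, were followed in oat (Avena sativa). A row of the expression table counted as a SWEET gene if its KEGG text held K15382, and as a sucrose symporter gene if it held K15378, solute carrier family 45. This gave 46 SWEET rows and 15 sucrose symporter rows, 61 of the 136488 genes in the table. The rule used annotation only and no expression value, though it was set with earlier results of these data known. RNA was measured in peeled grains of Baiyan No.9 (BY9), a high-oil oat cultivar. One group came from ears under shade for 4 days after flowering and the other from ears without shade, with 3 libraries in each. The comparison asks what changes in the grain when its own ear is kept from light. Levels are in FPKM (fragments per kilobase of gene, scaled for sequencing depth), a scale per length on which genes can be set side by side. Nothing in the labels ties the 3 libraries to separate plants. Each p-value therefore measures only how these libraries scatter, and that scatter may be technical.

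SWEETs are small carriers that let sucrose or hexoses pass down their gradient in either direction, and in cereals members of the family release sugar from maternal tissue toward the endosperm. Sucrose symporters (SUTs) couple sucrose uptake to protons. Plasma membrane forms load sucrose into the phloem or into grain tissue, and tonoplast forms let sucrose out of the vacuole. The table gives copies no SWEET or SUT number, so they are named here by the end of their ID, after the shared start AVESA.00010b.r2. Oat is hexaploid, with A, C and D subgenomes, so copies often come in sets of near-identical genes whose reads may have been divided unevenly.

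GO terms, which did not enter the choice, named the plasma membrane in 44 of the 46 SWEET rows and sucrose transport activity in 14 of the 15 symporter rows. It also divided the families into sets, which were drawn up after the values had been seen. Among SWEETs, 3 copies carried terms for both sucrose and copper transport (7DG1388440, 7AG1220010 and 5CG0929640), and 3 carried terms for assembly into oligomers and for the chloroplast (6DG1164100, 6AG1036140 and 6CG1078350). A further 14 carried a term for sucrose transport without copper. In 3 more (6AG1045920, 6CG1130650 and 6DG1154910) the KEGG text joined a bile acid:sodium symporter of the BASS family to the SWEET, so their values may come from either gene. Among symporters, 3 copies carried a term for pollen germination, 3 for the vacuole membrane and 3 for response to wounding.

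Values shifted between the groups well beyond these families. Total FPKM per library ran from 493004 to 510815 in ear-shaded grains, against 530911 to 561772 in unshaded grains, and the number of reads behind them is unknown. The median log2 fold change of the 58283 genes tested was 0.26, and it was 0.01 with median-of-ratios scaling. Markers of tissues in the grain moved too. Green tissue markers, 93 genes of the light-harvesting complexes, summed to 586 to 732 FPKM in ear-shaded and 15.7 to 23.7 FPKM in unshaded libraries, with 41 of 42 tested genes higher. Starchy endosperm markers, 161 genes with gliadin or seed storage text, summed to 6534 to 10386 FPKM in ear-shaded and 21221 to 41127 FPKM in unshaded libraries, with 90 of 115 tested genes lower and 2 higher. Oleosin genes, markers of aleurone and embryo, summed to 7.05 to 7.61 FPKM in ear-shaded and 18.2 to 32.0 FPKM in unshaded libraries, with 5 of 5 tested genes lower. Beside these counts, 42.4% of all tested genes were called higher and 21.5% lower. No marker gene of these lists was at 0 in all libraries, which held for every gene in the table. Their part in the results on sugar carriers was not tested. In such bulk samples fewer cells of a type and less RNA per cell cannot be told apart.

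SWEET expression was higher in grains of shaded ears. Summed over the 46 rows it was 546, 555 and 606 FPKM in the ear-shaded libraries, against 300.1, 185 and 326 FPKM in the unshaded ones. Every ear-shaded library lay above every unshaded one, and the means of 569 ± 32.3 and 270.1 ± 75.1 FPKM (SD, n = 3 each) differed 2.11-fold. The sum of the sucrose symporters was 185, 179.6 and 169.9 FPKM in ear-shaded and 164, 202 and 189 FPKM in unshaded grains, and the groups overlapped. The ratio of the SWEET to the symporter sum is free of library scaling. It was 2.95, 3.09 and 3.57 in ear-shaded libraries and 1.83, 0.914 and 1.72 in unshaded ones. Without the rows joined to BASS text it averaged 3.04 ± 0.332 and 1.46 ± 0.506 (SD, n = 3 each).

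**Figure D1:**
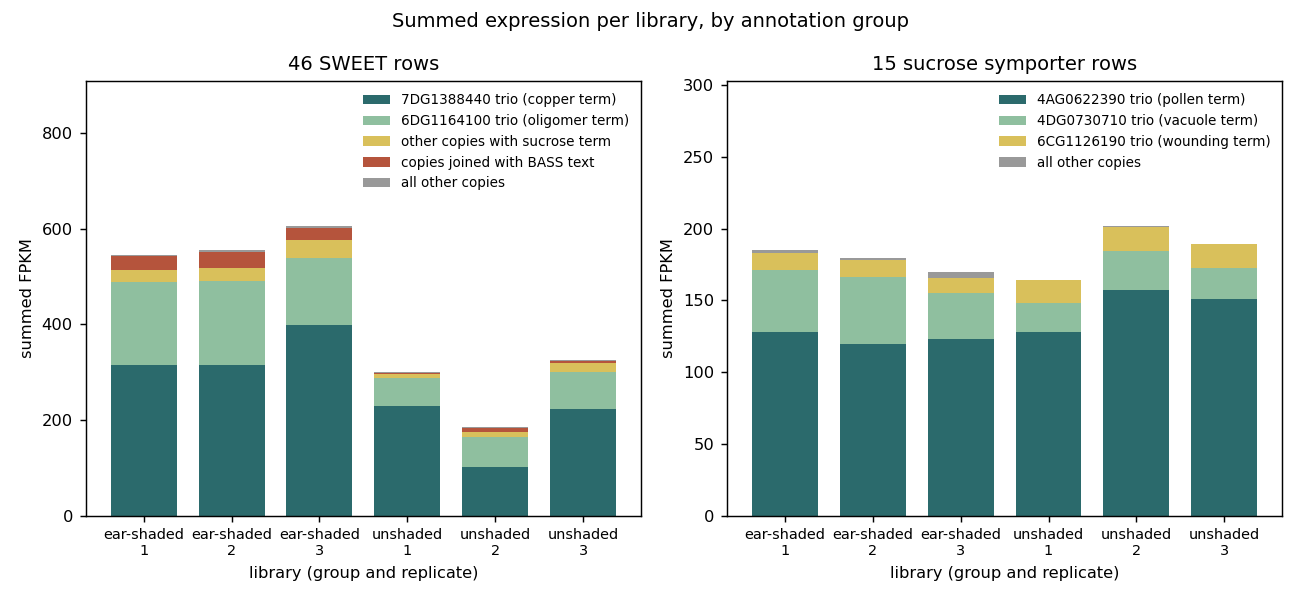
Bars give the summed FPKM of the 46 SWEET rows (left) and 15 sucrose symporter rows (right) in each library, divided into annotation sets. The SWEET bars stand at 546 to 606 FPKM in ear-shaded libraries and at 185 to 326 FPKM in unshaded ones, while the symporter bars of both groups lie between 164 and 202 FPKM.

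Few SWEET copies made up most of this expression. Of the 46 rows, 15 averaged 1 FPKM or more across all 6 libraries and were tested, and 6 had a mean of at least 10 FPKM. The other 31 rows together averaged 5.68 FPKM in ear-shaded and 3.77 FPKM in unshaded grains, and 22 of the 46 rows were listed at 0 in at least 1 library. Of the 15 tested, limma on log2(FPKM + 1), with Benjamini-Hochberg adjustment over all tested genes, called 13 higher in ear-shaded grains at an adjusted p under 0.05 and 0 lower. Among all genes tested 42.4% were called higher and 21.5% lower, 63.9% in either direction. At least 2-fold higher on that scale were 10 of the 15, against 16.3% of all tested genes. The ear-shaded libraries lay wholly above the unshaded ones in 12 of the 15, against 46.2% of all tested genes. One of the 15 (3DG0545370) passed the filter on low values through its ear-shaded level alone, so it could only be counted if it was higher there. The median log2 fold change of the 15 was 1.15, beside 0.26 for all tested genes.

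**Figure D2:**
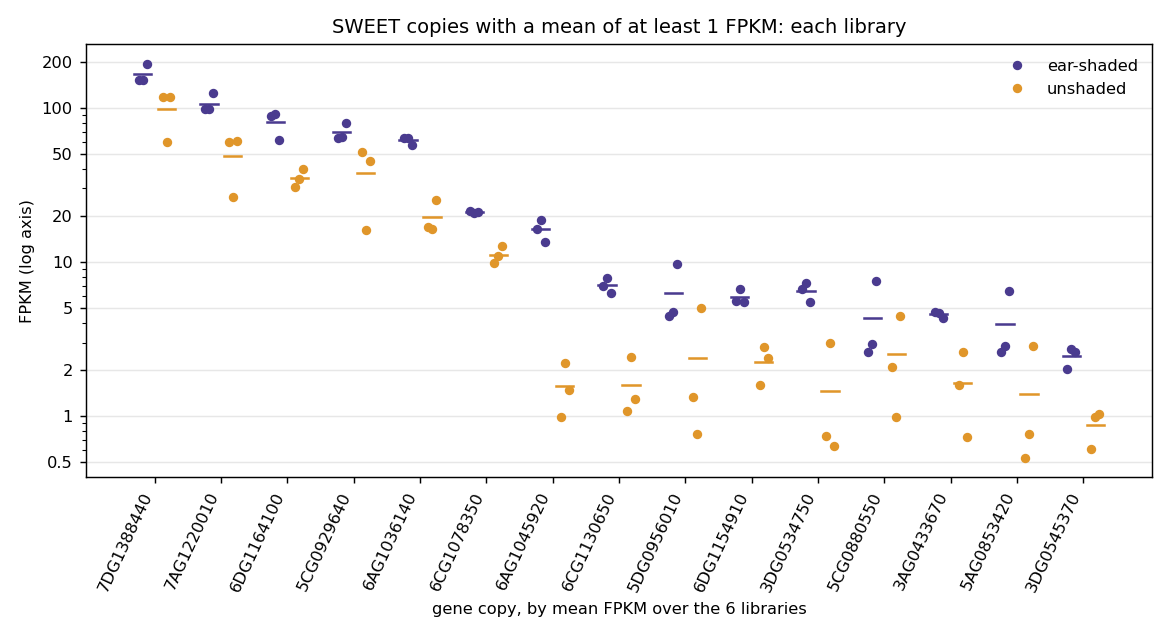
Points give FPKM on a log axis in each of the 3 ear-shaded and 3 unshaded libraries for the 15 tested SWEET copies, and short lines the group means. The copper-term copy 7DG1388440 is at the top with 152 to 194 FPKM in ear-shaded and 59.7 to 118 FPKM in unshaded grains, and 6AG1045920 shows the widest gap between the groups.

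The 2 most abundant SWEET genes carried the copper term, and the third copy of that set, 5CG0929640, ranked after 6DG1164100 by mean over the 6 libraries. In rice, SWEET11 (Xa13), a SWEET needed for grain filling, is known to interact with copper transporters. 7DG1388440 had 152, 152 and 194 FPKM in ear-shaded grains, against 118, 59.7 and 117 FPKM in unshaded grains. Unshaded replicate 2 was the lowest library for this copy, and the groups did not overlap. Among all genes in the table it ranked in the top 0.125% by mean FPKM in ear-shaded grains and in the top 0.540% in unshaded ones. It rose 1.69-fold in mean FPKM (log2 fold change 0.81, SE 0.29, limma adjusted p = 0.0389). This call is fragile. It ended without ear-shaded replicate 1, 2 or 3 (adjusted p = 0.0750, 0.0735 and 0.0988), without unshaded replicate 2 (0.103), without the filter on low values (0.0800) and with median-of-ratios scaling (0.207).

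The other two copies of the copper-term set showed the same low library. 7AG1220010 had 97.9, 97.9 and 124 FPKM in ear-shaded grains, against 59.8, 26.6 and 60.8 FPKM in unshaded grains, and rose 2.17-fold (log2 fold change 1.19, SE 0.32, limma adjusted p = 0.0118). 5CG0929640 had 64.1, 64.6 and 79.9 FPKM in ear-shaded grains, against 51.5, 16.2 and 45.3 FPKM in unshaded grains. Its groups did not overlap, but it missed the threshold (log2 fold change 1.02, 95% interval 0.11 to 1.92, limma adjusted p = 0.0514). It passed without unshaded replicate 1, 2 or 3 (adjusted p = 0.0268, 0.0498 and 0.0449), but not without ear-shaded replicate 1, 2 or 3 (0.0921, 0.0937 and 0.132). With quantile normalization (0.0320) and the same summed FPKM per library (0.0330) it also passed. Median-of-ratios scaling (0.167) and no filter on low values (0.0967) left it uncalled. Summed, the set had 314, 314 and 398 FPKM in ear-shaded grains, against 229.6, 102 and 223 FPKM in unshaded grains. It thus held 60.0 ± 4.98% of all SWEET expression in ear-shaded and 66.9 ± 10.6% in unshaded grains (SD, n = 3 each). The ranges of these shares overlapped.

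The set with the oligomer and chloroplast terms came next, and its 3 copies rose. 6DG1164100 had 89.1, 91.9 and 61.7 FPKM in ear-shaded grains, against 30.5, 34.3 and 40.0 FPKM in unshaded grains. The lowest ear-shaded library, replicate 3, lay above the highest unshaded one, also replicate 3. The gene rose 2.31-fold (log2 fold change 1.17, SE 0.20, limma adjusted p = 0.00136). 6AG1036140 had 63.8, 64.1 and 57.6 FPKM in ear-shaded grains, against 16.9, 16.4 and 25.3 FPKM in unshaded grains, a 3.16-fold difference and the largest of the 6 abundant copies (log2 fold change 1.64, SE 0.18, limma adjusted p = 0.000203). 6CG1078350 was lower in level, at 21.5, 20.7 and 21.0 FPKM in ear-shaded grains against 9.87, 10.9 and 12.6 FPKM in unshaded grains, and rose 1.89-fold (limma adjusted p = 0.000636). These calls held under every alternative run except a 2-fold minimum, which 6CG1078350 did not reach (log2 fold change 0.87). The set summed to 163.8 ± 20.4 FPKM in ear-shaded and 65.6 ± 10.9 FPKM in unshaded grains (SD, n = 3 each).

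The order of the abundant copies was firmer in ear-shaded grains. There the ranges of 7DG1388440, 7AG1220010 and the next copy did not overlap, while 6DG1164100 overlapped 5CG0929640, which overlapped 6AG1036140. In unshaded grains 7DG1388440, 7AG1220010, 5CG0929640 and 6DG1164100 formed a chain of overlapping neighbours. 6AG1036140 lay below 3 of them but within the wide range of 5CG0929640, and 6CG1078350 lay below all of these. Within the SWEET sum, 6AG1036140 took 11.7%, 11.5% and 9.51% in ear-shaded libraries, against 5.64%, 8.87% and 7.77% in unshaded ones. 7DG1388440 took 27.9%, 27.3% and 32.0% in ear-shaded libraries, against 39.4%, 32.4% and 35.9% in unshaded ones. For each of these shares the groups did not overlap, though for 7DG1388440 the nearest libraries were close, at 32.0% and 32.4%. Shares of the same sum depend on each other. The limma intervals of the log2 fold changes overlapped, at 0.14 to 1.47 for 7DG1388440 and 1.21 to 2.06 for 6AG1036140. Whether these copies changed by different amounts was not tested.

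The largest change among tested SWEET rows was in the set joined with BASS text. 6AG1045920 had 16.5, 18.8 and 13.6 FPKM in ear-shaded grains, against 0.984, 2.20 and 1.49 FPKM in unshaded grains, 10.5-fold higher (log2 fold change 2.77, SE 0.20, limma adjusted p = 4.29e-05). 6CG1130650 had 6.98, 7.90 and 6.28 FPKM in ear-shaded grains, against 1.07, 2.43 and 1.28 FPKM in unshaded grains (4.42-fold, limma adjusted p = 0.000261). 6DG1154910 had 5.55, 6.69 and 5.46 FPKM in ear-shaded grains, against 1.58, 2.80 and 2.38 FPKM in unshaded grains (2.62-fold, limma adjusted p = 0.000787). In unshaded grains the levels of the 3 copies overlapped, and in ear-shaded grains 6AG1045920 stood apart from the other two. These calls held under every alternative that tested the rows, but whether the SWEET or the BASS carrier changed cannot be told apart. Without the 3 rows, 10 of 12 tested SWEET rows were higher.

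The remaining tested copies were of low level. The sucrose-term copies 3DG0534750 and 3AG0433670 were highest, among unshaded libraries, in replicate 2. 3DG0534750 had 6.64, 7.35 and 5.53 FPKM in ear-shaded grains, against 0.743, 2.98 and 0.639 FPKM in unshaded grains, 4.47-fold higher and 9.42-fold without unshaded replicate 2 (limma adjusted p = 0.00217). 3AG0433670 had 4.77, 4.66 and 4.32 FPKM in ear-shaded grains, against 1.58, 2.60 and 0.726 FPKM in unshaded grains (2.80-fold, limma adjusted p = 0.00414). In both genes the groups did not overlap. 3DG0545370, which carries a term for identical protein binding, had 2.01, 2.73 and 2.59 FPKM in ear-shaded grains, against 0.613, 0.981 and 1.04 FPKM in unshaded grains (2.78-fold, limma adjusted p = 0.00123).

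A further set with the sucrose term, 5DG0956010, 5CG0880550 and 5AG0853420, was highest in replicate 3 of both groups. 5DG0956010 had 4.44, 4.72 and 9.67 FPKM in ear-shaded grains, against 1.32, 0.765 and 5.00 FPKM in unshaded grains. 5AG0853420 had 2.61, 2.85 and 6.48 FPKM in ear-shaded grains, against 0.537, 0.768 and 2.84 FPKM in unshaded grains. In both genes the groups overlapped, yet both passed as higher (limma adjusted p = 0.0414 and 0.0380). These calls depended on the processing and on single libraries. Both ended with median-of-ratios scaling (adjusted p = 0.0823 and 0.0761) and with quantile normalization (0.0787 and 0.0858). They also ended without the filter on low values (0.0831 and 0.0772). For 5DG0956010 the adjusted p was 0.0538, 0.0612 and 0.137 without ear-shaded replicate 1, 2 and 3 and 0.117 and 0.116 without unshaded replicate 1 and 2. For 5AG0853420 it was 0.0520 and 0.121 without ear-shaded replicate 2 and 3 and 0.121 and 0.0988 without unshaded replicate 1 and 2. Without unshaded replicate 3 the folds were 6.02 and 6.10, in place of 2.66 and 2.88. 5CG0880550 had 2.59, 2.93 and 7.48 FPKM in ear-shaded grains, against 2.08, 0.992 and 4.47 FPKM in unshaded grains. It was not called (log2 fold change 0.61, 95% interval -0.37 to 1.60, limma adjusted p = 0.238). Its fold of 1.72 was 1.10 without ear-shaded replicate 3 and 2.82 without unshaded replicate 3. With the replicate number in the model as a block, 5CG0880550 passed as higher (limma adjusted p = 0.0260). In that fit 5DG0956010 (0.00190) and 5AG0853420 (0.00103) had lower adjusted p than in the main run. Whether the replicate numbers pair the libraries is unknown.

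**Figure D3:**
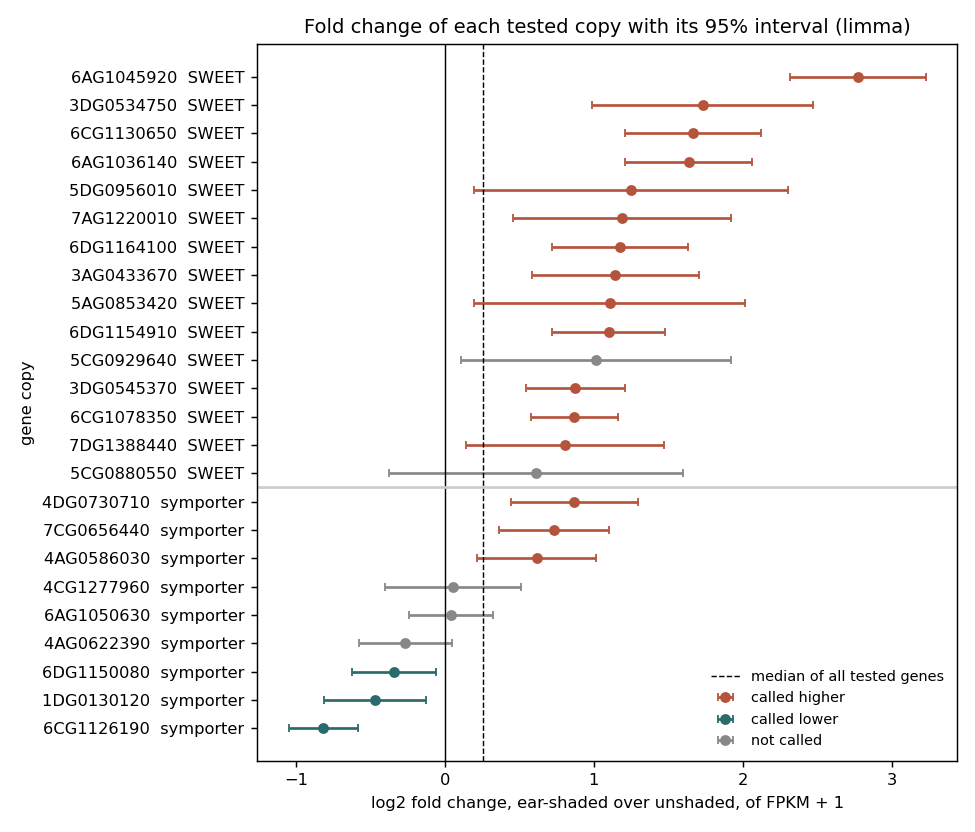
Points give the log2 fold change of FPKM + 1, ear-shaded over unshaded, for the 24 tested copies, with 95% intervals from limma, coloured by call, and the dashed line marks the median of all tested genes at 0.26. SWEET copies (top) run from 0.61 to 2.77, and symporter copies (bottom) from -0.82 to 0.87.

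Most SWEET rows were scarcely expressed in these grains. None of the 31 rows under the filter exceeded 1.42 FPKM in any library, 3 of them reached 1 FPKM in at least 1 library, and 27 of the 46 rows stayed under 0.5 FPKM in all 6. 3CG0478220, with the sucrose term, had 1.36, 1.07 and 0.784 FPKM in ear-shaded grains, against 0.300, 0.559 and 0.201 FPKM in unshaded grains. With no filter on low values it passed as higher (limma adjusted p = 0.0198). 7DG1349400 was the untested row with the highest unshaded level. It had 0.459, 0.616 and 0.866 FPKM in ear-shaded grains, against 0.722, 1.04 and 1.42 FPKM in unshaded grains, and the groups overlapped. 4AG0640660 had 0.0629, 0.137 and 0.0669 FPKM in ear-shaded grains, against 0.315, 0.201 and 0.262 FPKM in unshaded grains, and was the single SWEET row called lower with no filter (limma adjusted p = 0.0177). These 3 rows were picked after their values were seen.

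The sucrose symporters changed less and in both directions. Of the 15 rows, 9 averaged 1 FPKM or more and were tested. Limma called 3 higher and 3 lower in ear-shaded grains, against 42.4% and 21.5% of all tested genes, and 0 of the 9 changed by 2-fold on the log2(FPKM + 1) scale in either direction (16.3% and 10.4% of all tested genes). The ear-shaded libraries lay wholly above the unshaded ones in 3 of the 9 and wholly below in 4, against 46.2% and 24.0% of all tested genes. Their median log2 fold change was 0.04, beside 0.26 for all tested genes. Without ear-shaded replicate 1 or 2, or unshaded replicate 2 or 3, 1 was lower in place of 3.

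**Figure D4:**
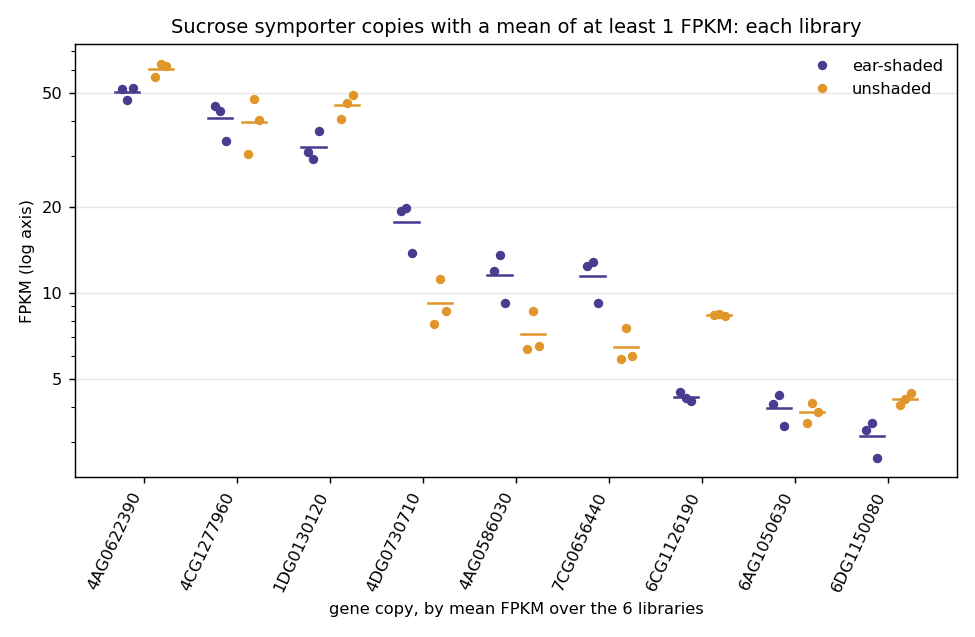
Points give FPKM on a log axis in each of the 3 ear-shaded and 3 unshaded libraries for the 9 tested sucrose symporter copies, and short lines the group means. The 3 pollen-term copies at the left lie at 29.3 to 63.3 FPKM in both groups, the 3 vacuole-term copies in the middle are higher in ear-shaded grains, and 6CG1126190 is lower there at 4.17 to 4.50 FPKM against 8.30 to 8.44 FPKM.

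The copies with the pollen germination term, which also carry the term for sucrose transport activity, were the abundant ones. 4AG0622390 had 51.6, 47.4 and 52.1 FPKM in ear-shaded grains, against 56.9, 63.3 and 62.0 FPKM in unshaded grains. Its groups did not overlap, with ear-shaded grains lower, but the difference missed the threshold (log2 fold change -0.27, 95% interval -0.58 to 0.04, limma adjusted p = 0.116), although median-of-ratios scaling called it lower. 1DG0130120 had 31.1, 29.3 and 36.8 FPKM in ear-shaded grains, against 40.6, 46.2 and 49.0 FPKM in unshaded grains, and was called lower (log2 fold change -0.47, SE 0.15, limma adjusted p = 0.0235). That call ended without ear-shaded replicate 1 or 2 (adjusted p = 0.0871 and 0.103) and without unshaded replicate 2 or 3 (0.0588 and 0.0553). It also ended with each library scaled to the same sum (0.0685). 4CG1277960 had 45.0, 43.2 and 34.1 FPKM in ear-shaded grains, against 30.7, 47.8 and 40.2 FPKM in unshaded grains. Its groups overlapped, and the interval of its log2 fold change ran from -0.40 to 0.51. 4AG0622390 was the highest symporter in both groups and did not overlap the next copy in either, while 1DG0130120 and 4CG1277960 overlapped in both. The set held 69.0%, 66.7% and 72.4% of the symporter sum in ear-shaded libraries, against 78.0%, 77.9% and 79.9% in unshaded ones, with no overlap.

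The copies with the vacuole membrane term rose. 4DG0730710 had 19.3, 19.9 and 13.7 FPKM in ear-shaded grains, against 7.77, 11.1 and 8.65 FPKM in unshaded grains (1.92-fold; log2 fold change 0.87, SE 0.18, limma adjusted p = 0.00413). 7CG0656440 had 12.4, 12.8 and 9.18 FPKM in ear-shaded grains, against 5.89, 7.53 and 6.03 FPKM in unshaded grains (1.77-fold, limma adjusted p = 0.00461). 4AG0586030 had 11.9, 13.6 and 9.19 FPKM in ear-shaded grains, against 6.37, 8.63 and 6.52 FPKM in unshaded grains (1.61-fold, limma adjusted p = 0.0148). In each the ear-shaded replicate 3 was the lowest of its group and unshaded replicate 2 the highest of its group, with no overlap between the groups. With median-of-ratios scaling 4DG0730710 still passed and the other two did not (adjusted p = 0.0530 for 7CG0656440 and 0.171 for 4AG0586030). The call for 4AG0586030 also ended without ear-shaded replicate 1 or 2 (0.0521 and 0.0612) or unshaded replicate 1 (0.0524). As a share of the symporter sum, which does not depend on scaling, the set had 23.6%, 25.8% and 18.9% in ear-shaded libraries, against 12.2%, 13.5% and 11.2% in unshaded ones.

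The copies with the wounding term were lower or close to level. 6CG1126190 had 4.50, 4.29 and 4.17 FPKM in ear-shaded grains, against 8.37, 8.44 and 8.30 FPKM in unshaded grains. Both groups were tight, and the gene was 1.94-fold lower under shade (log2 fold change -0.82, SE 0.10, limma adjusted p = 0.000316), a call that held under every alternative run except the 2-fold minimum. 6DG1150080 had 3.30, 3.52 and 2.65 FPKM in ear-shaded grains, against 4.04, 4.24 and 4.47 FPKM in unshaded grains. It was called lower (log2 fold change -0.34, limma adjusted p = 0.0385), but the call ended without any 1 of the 6 libraries (adjusted p from 0.0538 to 0.0915). 6AG1050630, whose KEGG text joins a prolyl 4-hydroxylase, had 4.10, 4.39 and 3.42 FPKM in ear-shaded grains, against 3.52, 4.12 and 3.83 FPKM in unshaded grains, with overlap. Its log2 fold change of 0.04 had an interval from -0.24 to 0.32. In unshaded grains 6CG1126190 stood within the range of the vacuole-term copy 4DG0730710, and in ear-shaded grains it lay below all of the vacuole-term copies.

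Low symporter copies with the term for sucrose transport activity, but none for pollen germination, vacuole membrane or wounding, were near 0 in unshaded grains. 6DG1161720 had 0.892, 0.653 and 2.49 FPKM in ear-shaded grains, against 0.0559, 0.321 and 0.0198 FPKM in unshaded grains. 6AG1038440 had 0.346, 0.345 and 1.36 FPKM in ear-shaded grains, against 0.0903, 0.0637 and 0 FPKM in unshaded grains. In both, ear-shaded replicate 3 was the highest library and the groups did not overlap. With no filter on low values 6DG1161720 passed as higher (limma adjusted p = 0.0326) and 6AG1038440 did not (0.0590). The 5 untested copies of this kind summed to 1.70, 1.33 and 4.57 FPKM in ear-shaded grains, against 0.146, 0.594 and 0.176 FPKM in unshaded grains. Ear-shaded replicate 3 thus carried most of the ear-shaded level.

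The authors' deposited table uses another scaling, with log2 fold changes that lie below the log2 ratios of mean FPKM by a median of 0.382. It marks 9 of the 46 SWEET rows as up and 2 as down, and 2 of the 15 symporter rows as up and 1 as down. Among the rows tested here, 7 SWEET rows carry the mark up there and 1 symporter row (6CG1126190) the mark down. Tested rows that changed less than 2-fold on that scale carry no mark, even at a low adjusted p. The SWEET copy 6DG1164100 has none (authors' log2 fold change 0.830, adjusted p = 7.47e-05). The symporter copy 1DG0130120 has none either (-0.858, 4.04e-06). Counts of marks are therefore not like the limma counts, which rest on the adjusted p alone. Of all genes tested here the authors' deposited table marks 16.8% as up and 19.5% as down. For 7DG1388440 the authors' deposited table gives a log2 fold change of 0.386 with an adjusted p of 0.257, where limma called it higher. For 4AG0622390 the authors' deposited table gives -0.654 with an adjusted p of 6.36e-05, where limma did not call it. With median-of-ratios scaling, 10 SWEET copies were called higher and 0 lower, and 1 symporter higher and 4 lower, against 29.7% higher and 29.8% lower among all tested genes. With quantile normalization these were 12 and 0 SWEETs and 3 and 3 symporters, against 31.9% and 28.1% of all tested genes. With the same summed FPKM per library they were 14 and 0 SWEETs and 3 and 1 symporters, against 47.3% and 18.7%.

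**Figure D5:**
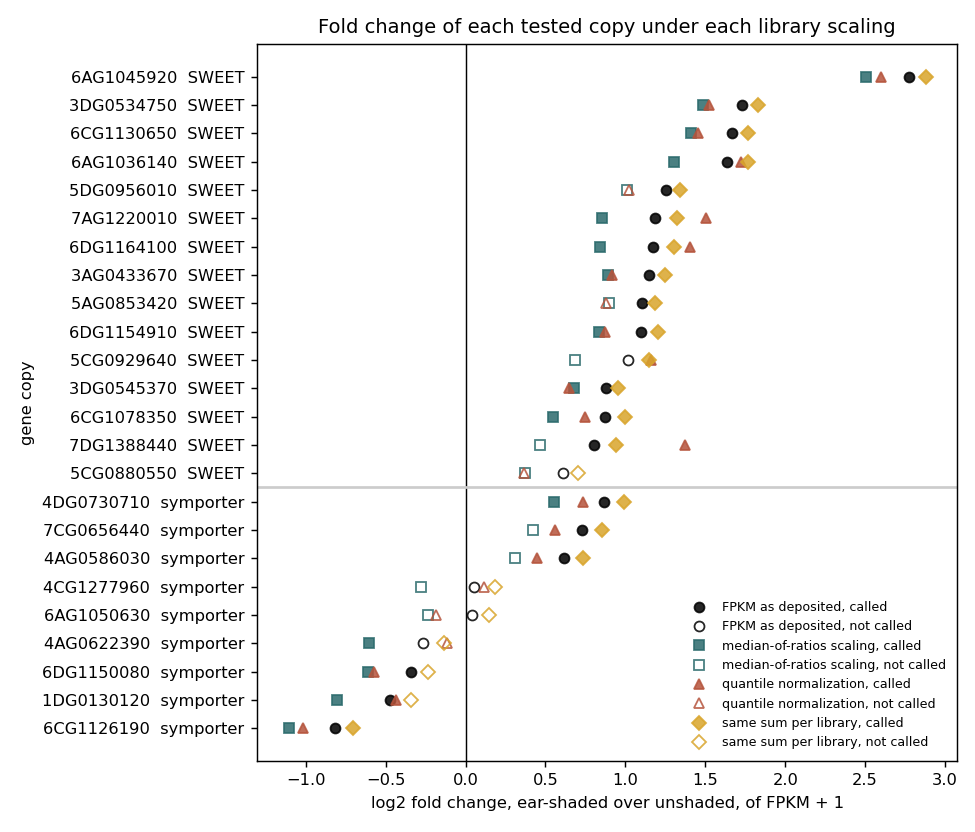
Symbols give the log2 fold change of FPKM + 1, ear-shaded over unshaded, for the 24 tested copies with the FPKM as deposited and under 3 other scalings, filled where limma called the copy. SWEET copies lie to the right of 0 under each scaling, and the uncalled symporters 4CG1277960 and 6AG1050630 change side.

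Other genes that make, split or move sucrose did not shift in 1 direction. Among all tested genes, to be set beside each count below, 42.4% were called higher and 21.5% lower, with a median log2 fold change of 0.26. Sucrose synthase, which splits sucrose for starch and cell wall synthesis, had 0 of 10 tested genes higher and 7 lower, or 1 higher and 4 lower with quantile normalization. Its most abundant copy (6AG1056840) was at 416 ± 62.9 FPKM in ear-shaded and 667 ± 73.9 FPKM in unshaded grains (SD, n = 3 each; limma adjusted p = 0.0418). Sucrose-phosphate synthase, which makes sucrose, had 16 of 16 tested genes higher, or 12 with median-of-ratios scaling and 14 with quantile normalization. Its most abundant copy (UnG1464680) was at 56.4 ± 11.8 FPKM in ear-shaded and 24.4 ± 3.52 FPKM in unshaded grains (limma adjusted p = 0.00133). Sucrose-phosphatase, the next step, had 2 of 4 higher and 1 lower. Invertases, which cut sucrose into glucose and fructose, had 11 of 28 higher and 2 lower, with a median log2 fold change of 0.30. The invertase of the largest called change (2AG0245070) had 21.3, 21.8 and 11.4 FPKM in ear-shaded grains, against 1.20, 5.62 and 1.82 FPKM in unshaded grains. Hexokinases and fructokinases had 11 of 25 higher and 8 lower, with a median of 0.12, but 7 higher and 9 lower with median-of-ratios scaling. UTP-glucose uridylyltransferase had 2 of 4 higher and 1 lower. Of 84 further sugar transporters tested, 41 were higher and 13 lower, against 42.4% and 21.5% of all tested genes. The most abundant of them (1DG0153070) was at 19.0 ± 1.34 FPKM in ear-shaded and 40.0 ± 7.38 FPKM in unshaded grains, and 7DG1370430, a sugar transporter of the major facilitator superfamily, was at 28.3 ± 0.626 FPKM in ear-shaded and 1.69 ± 0.951 FPKM in unshaded grains (limma adjusted p = 3.47e-05).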

How the data were processed

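RNA was measured in 6 libraries of peeled oat grains, 3 from shaded and 3 from unshaded ears as the treatment field gives them. Trizol extraction and an Illumina library kit are stated per the labels' protocols, which also name a PacBio sequencer. The submitters' processing notes list HISAT2 and StringTie. Build, annotation and the authors' testing tool are not given in the sources. The deposited table holds FPKM per gene and library, gene length, and the authors' log2 fold change, p-value and adjusted p-value.

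FPKM are not counts. A search for whole reads placed at best 16.9% to 19.6% of low values within 0.05 of a whole number, where 10% is given by 1 fixed step, so depth is unknown. Genes averaging 1 FPKM or more were fitted on log2(FPKM + 1) with limma 3.58.1 in R 4.3.3 (eBayes with a mean-variance trend, two-sided, Benjamini-Hochberg over 58283 genes, threshold 0.05). Folds are ratios of mean FPKM, while log2 fold changes refer to log2(FPKM + 1) and so understate changes in weakly expressed genes. The script was tested on simulated data. Sums, shares and ratios over members are described without a test, so the permutation test planned for the sums is not given.

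Members and lists were chosen with earlier results of these data known. Named copies are the 8 SWEETs and 6 symporters of highest mean, up to 4 called copies of largest change per direction and family, and their set partners. Annotation sets, and the removal of inhibitor and CRISP family text from the invertase and transporter lists, came after values had been seen. Alternatives covered pseudocount, filter, scaling, variance model, library weights, replicate number, leaving out single libraries, and averaging the closely alike ear-shaded replicates 1 and 2. No genome or sequence was used here.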

Additional observations from a re-analysis of the deposited data

How the results depend on the processing

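More SWEET genes were called higher than lower in every setting. From 13 higher of 15 tested, the count was 6 of 7 with a mean of at least 5 FPKM, 10 with median-of-ratios scaling, and 10 to 14 with 1 library left out. The count lower was 1 with no filter, in place of 0. Symporters were less settled. From 3 higher and 3 lower, no filter gave 5 higher, median-of-ratios scaling 1 higher, the same sum per library 1 lower, the average of ear-shaded replicates 1 and 2 (r = 0.989 between them) 1 lower, and a 2-fold minimum, chosen after seeing the data, 0 higher and 0 lower. With 1 library left out 2 to 3 were higher and 1 to 2 lower. The count lower was 1 without ear-shaded replicate 1 or 2 or unshaded replicate 2 or 3. Shares of all tested genes called are given only for the main run, its 2-fold minimum and the 3 other scalings. Counts in the remaining settings cannot be set against such a share.

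The log2 ratio of the SWEET sums was 1.07 and with median-of-ratios scaling 0.74 (0.86 to 1.23 with 1 library left out). That of the symporter sums was -0.06. It was -0.40 with median-of-ratios scaling, 0.0806 with the same sum per library and 0.0118 without unshaded replicate 2; leaving out 1 library gave -0.13 to 0.0118. Log2 fold changes of uncalled copies that changed sign were -0.28 (median-of-ratios scaling), -0.02 (without ear-shaded replicate 1), -0.11 (without unshaded replicate 1) and -0.00536 (averaged replicates) for 4CG1277960, with 0.20 as its highest value when 1 library was left out. They were -0.23 (median-of-ratios scaling), -0.19 (quantile normalization), -0.0217 (without ear-shaded replicate 2), -0.00632 (without unshaded replicate 1) and -0.00120 (averaged replicates) for 6AG1050630, with 0.12 as its highest value when 1 library was left out. Over the 24 tested copies and all settings, 309 values kept direction and call, 46 lost the call, 10 gained it and 9 changed sign. The cause was not tested.

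Whether equal replicate numbers pair the libraries could not be settled. Deviations of same-numbered libraries correlated at -0.0523, -0.0461 and -0.147, and none of the 3 ear-shaded libraries matched its own number best. With 3 libraries per group such correlations depend on each other and cannot exclude a pairing. With the replicate number as a block, 15 SWEETs were higher, and 3 symporters were higher and 1 lower. The share of all tested genes called in that fit is not given, so these counts cannot be set against it.

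With the patterns as first written the invertase list had 28 higher and 12 lower of 87. Under median-of-ratios scaling 26 further sugar transporters were higher and 19 lower, and 9 sucrose synthases lower. Without read counts, differences among copies under about 1 FPKM cannot be given an error from depth.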

Other observations

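A gene outside the KEGG rule, 4AG0648760, has the COG text of a sugar efflux transporter for intercellular exchange, the text of a SWEET-type carrier, and no KEGG text. It had 3.15, 2.94 and 3.91 FPKM in ear-shaded grains, against 5.86, 6.07 and 5.33 FPKM in unshaded grains, with no overlap between the groups. Limma called it lower (log2 fold change -0.64, SE 0.12, adjusted p = 0.00270), opposite in direction to the tested SWEET rows. It was singled out after its values were seen.

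The copies 7DG1349390 and 7DG1349400 have neighbouring ID numbers and the same sucrose term. 7DG1349390 had 0.355, 0.412 and 0.457 FPKM in ear-shaded grains, against 0.169, 0.258 and 0.152 FPKM in unshaded grains, and passed as higher with no filter on low values (limma adjusted p = 0.0258). 7DG1349400 had a log2 fold change of -0.32 in that fit and did not pass (limma adjusted p = 0.178). The authors' deposited table marks 7DG1349400 as down and leaves 7DG1349390 unmarked.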
